A study of Mus musculus with 16 samples.

Results

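The genes described here encode the proteins of the cytosolic ribosome, measured in subcutaneous liver tumours of mice under a checkpoint antibody, a kinase inhibitor or both. Members were all measured genes whose symbol begins with Rpl or Rps and a digit, together with Rplp0, Rplp1, Rplp2 and Rpsa, leaving out the Rps6k kinases and pseudogene symbols. A gene with several probe sets was read through the probe set of highest mean signal across all 16 arrays. This gave 72 of 17097 measured genes, 46 of the large subunit (Rpl) and 26 carrying an Rps symbol. The rule also takes in Rps19bp1, which encodes a protein that binds a ribosomal protein and is no part of the ribosome. The rule itself uses symbols, and brightness only to pick among probe sets; it was set with earlier results of these data known.

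Hepa1-6, a mouse hepatocellular carcinoma line, was grown in the flank of male C57BL/6 mice that were 5 weeks old at implantation, implanted as cells in 50% Matrigel. Treatment began once a tumour measured 200 to 300 cubic millimetres, and tumours were taken on day 14. The Placebo group (n = 4) received hamster IgG at 10 mg/kg, and the AntiPD1 group (n = 3) the hamster antibody J43 against mouse PD1 at 10 mg/kg, both in 5 injections given every 3 days. The Cabozantinib group (n = 5) received that oral multikinase inhibitor daily at 30 mg/kg, and the Combination group (n = 4) cabozantinib with the antibody. The labels do not say whether IgG was given to the Cabozantinib mice. All tumours came from 1 cell line in hosts with an intact immune system, and the RNA was that of whole tumour pieces, so fewer cells of a type and less RNA per cell cannot be told apart. Each tumour was read on 1 array, and p-values measure only the spread between these tumours.

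A cytosolic ribosome is built from ribosomal RNA and a single copy of most ribosomal proteins, on a large subunit that joins amino acids and a small subunit that reads the messenger RNA. The messenger RNAs of these proteins are among the most abundant in growing cells, and many begin with a run of pyrimidines, the TOP tract, through which mTORC1 signalling adjusts their translation. Their amount is usually held in step across the family, while assembly of the subunits needs a separate set of nucleolar biogenesis factors. A few members have a paralogue with a restricted pattern, such as Rpl3l in striated muscle and Rpl39l in the testis.

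The sequence around the annotated transcription start is shown for the members that the results turn on, with Rps6 and Rpl27a as examples of a pyrimidine tract. RefSeq starts on GRCm38.p6 were found for 58 of the 72 members, 69 starts in all. Each line gives 10 bases before and 20 from the start, and capitals mark a run of at least 5 pyrimidines that reaches to within 5 bases of the start.
Rps6 at chr4:86857348-86857377, minus strand: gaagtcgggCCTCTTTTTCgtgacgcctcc
Rpl27a at chr7:109519185-109519214, plus strand: cgtgagCTCCTCCCTTTTCCCTTTCTgcca
Rpl35 at chr2:39005112-39005141, minus strand: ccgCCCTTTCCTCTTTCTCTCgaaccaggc
Rpl14 at chr9:120571507-120571536, plus strand: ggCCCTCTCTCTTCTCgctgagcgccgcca
Rps15a at chr7:118116128-118116157, minus strand: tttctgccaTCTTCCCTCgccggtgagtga
Rpl22l1 at chr3:28805498-28805527, plus strand: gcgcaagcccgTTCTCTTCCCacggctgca
Rps27l, first start, at chr9:66946076-66946105, plus strand: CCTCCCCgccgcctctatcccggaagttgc
Rps27l, other start, at chr9:66946403-66946432, plus strand: gggcttcagggtcactaacgggcctcgcag
Rps15 at chr10:80292421-80292450, plus strand: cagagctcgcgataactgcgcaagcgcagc
Rpl39l at chr16:10170218-10170247, plus strand: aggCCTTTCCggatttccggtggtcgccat
Rpl3l, first start, at chr17:24727816-24727845, plus strand: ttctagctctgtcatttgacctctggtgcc
The run was 20 bases long in Rpl27a, 18 in Rpl35, 14 in Rpl14, 10 in Rps6 and in Rpl22l1, and 9 in Rps15a. Rps15 and the start shown for Rpl3l had no run of 5. The first Rps27l start sat past the end of a run of 9 bases, and its other start had none.

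A run of 8 or more pyrimidines lay at 21 of the 69 member starts (30.4%) and at 9.72% of all 32851 starts in the table. In the 300 bases from 250 before to 50 after each start, searched on both strands with overlapping matches of different motifs allowed, CCGGAAG, the core bound by the ETS factor GABP, was found at 37.7% of member starts and 8.86% of all starts. GGGCGG, bound by SP1, was found at 60.9% of member starts and 35.7% of all, and TATAAA at 7 of the 69 member starts and 13.6% of all. The members lay on 19 chromosomes, with 9 on chromosome 7 and 4 on X. These are matches of letters, not measured binding.

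On the log2 scale of the array, the ribosomal protein genes stood at the top of the signal range. The mean over the 16 tumours was above 12 for 64 of the 72, and above the 98th percentile of all genes for 66. Of the 100 brightest genes, 60 were members. Rpl41, a very short protein of the large subunit, was the second brightest gene after Actb, with a mean of 13.43, while the highest signal on any array ran from 13.42 to 13.51. Levels of different probe sets share no scale per length, so no order between members is drawn from them. The SD over 16 tumours had a median of 0.05 over the members and 0.17 over all genes. Among genes with a mean above 12, it was 0.05 for the 64 members and 0.10 for the other 129. These levels are close to the highest signal of the arrays, and dimmer probe sets of the same genes, described further on, differed more between groups. Whether the small spread reflects a compressed scale at the top was not tested.

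The 8 members with a mean of 12 or less were Rpl3l, Rps15a, Rpl39l, Rpl14, Rps19bp1, Rpl7l1, Rps27l and Rpl22. Rps15a at 4.85 and Rpl3l at 4.52 lay under 5.13, the highest of the array medians, and are not shown to be above background over the tumours as a whole. Rps15a, Rpl39l and Rpl14 were represented only by probe sets of the plain "_at" type. The brightest probe set was of the "_x_at" type for 16 members and "_s_at" for 6, names that the maker gives to probes which may also pair with related transcripts. Ribosomal protein genes have many processed pseudogenes, so the signal of those members may include other transcripts.

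Placebo tumours carried slightly more ribosomal protein signal than tumours given the antibody, alone or with cabozantinib. Each tumour was summarised by the median, over the 72 members, of the log2 signal minus the gene's mean over all tumours. In Placebo tumours 1 to 4 this deviation was 0.02, 0.03, 0.03 and 0.04. In AntiPD1 tumours 1 to 3 it was -0.02, -0.04 and -0.03, and in Combination tumours 1 to 4 it was -0.03, -0.07, -0.01 and -0.03. All 4 Placebo tumours thus lay above all 7 tumours given the antibody. The 5 Cabozantinib tumours, at 0.07, 0.05, -0.02, -0.04 and 0.03, lay on both sides, with replicates 3 and 4 among the antibody-treated tumours and the other 3 among or above the Placebo tumours. Combination replicate 2 was the lowest of the 16 tumours for 25 members, and Cabozantinib replicate 1 the highest for 31.

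**Figure D1:**
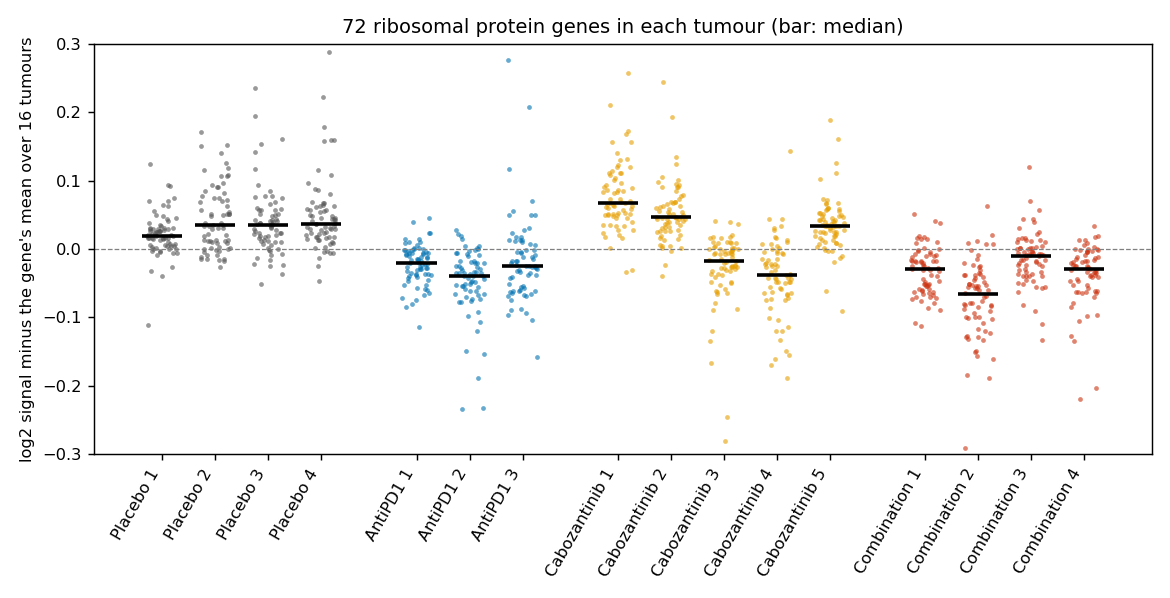
Log2 signal of each of the 72 ribosomal protein genes minus its mean over 16 tumours, by tumour; points are genes, bars medians, and colours treatment groups. The medians of all 4 Placebo tumours are above 0 and those of all AntiPD1 and Combination tumours below 0, while Cabozantinib tumours fall on both sides; 40 of 1152 points lie outside the axis of 0.3 either way.

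Macrophage and fibroblast markers tended to be higher in tumours where these deviations were lower, and hepatocyte markers tended to be lower there, with exceptions. Endothelial markers did not follow the deviations throughout. The mean log2 signal of the 9 macrophage markers ran from 8.83 to 10.2 in Placebo, 10.5 to 11.014 in AntiPD1, 8.18 to 10.7 in Cabozantinib and 10.7 to 11.4 in Combination tumours. Within the Cabozantinib group it was 10.7 and 10.3 in replicates 3 and 4, the tumours with low ribosomal protein signal, and 9.28 and 8.18 in replicates 1 and 2, the tumours with the highest. The 6 fibroblast markers ran from 7.82 to 8.63 in Placebo, 8.95 to 9.63 in AntiPD1 and 9.04 to 9.52 in Combination, and were 9.66 and 9.26 in Cabozantinib replicates 3 and 4 against 7.28 to 8.20 in the other three. The 5 T cell markers ran from 7.66 to 8.24 in Placebo, 8.29 to 8.66 in AntiPD1 and 7.96 to 8.68 in Combination, the last overlapping Placebo. Endothelial markers ran from 5.76 to 6.57 in Placebo, 7.09 to 7.80 in AntiPD1, 4.73 to 5.59 in Cabozantinib and 5.34 to 5.49 in Combination. Hepatocyte markers ran from 9.13 to 9.76 in Placebo, 9.20 to 9.41 in AntiPD1, 9.07 to 10.2 in Cabozantinib and 8.50 to 9.80 in Combination. In Cabozantinib they were 9.07 and 9.26 in replicates 3 and 4, against 9.85, 9.93 and 10.2 in replicates 1, 2 and 5. In Combination replicates 1 to 4 they were 8.58, 8.50, 8.75 and 9.80, so replicate 4 was an exception. None of the 9 macrophage markers had a mean under the highest array median. In Combination against Placebo, where limma's adjusted p called 10.4% of all genes and 6.64% fell, 3 of the 9 rose and 3 of 12 hepatocyte markers fell. Of 6 endothelial markers 4 fell and 1 rose, 2 of 4 red blood cell markers fell, and 1 of 6 fibroblast markers rose. Skeletal muscle markers were high in AntiPD1 replicate 2, Cabozantinib replicate 4 and Combination replicate 4, with mean levels of 11.124, 10.687 and 11.888 against 4.43 to 8.62 in the other tumours. The 8.62 was Cabozantinib replicate 3, while replicates 1, 2 and 5 of that group were at 4.50, 4.70 and 5.65. Combination replicate 2, the tumour with the lowest ribosomal protein deviation, was at 4.56. The part of cell composition in the ribosomal protein differences was not tested, beyond 2 settings. These were leaving out the 3 tumours highest in muscle markers, which kept Cabozantinib replicate 3, and a fit with the muscle score as a covariate. The labelling control RNAs ran from 7.54 to 8.95 in Placebo, 8.65 to 9.09 in AntiPD1, 8.62 to 9.40 in Cabozantinib and 7.76 to 9.10 in Combination. The difference between 3' and 5' control probe sets of Actb, a sign of RNA quality, was 0.4533 to 0.539 in Placebo, 0.447 to 0.4528 in AntiPD1, 0.427 to 0.513 in Cabozantinib and 0.410 to 0.468 in Combination. All 3 AntiPD1 tumours were thus just under all Placebo tumours, and its part in the differences was not tested.

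Combination against Placebo asks what both drugs together changed. Of the 72 members 68 were lower in the Combination mean, by a median of -0.06 on the log2 scale, or -4.34%, beside a median of -0.02 and 54.8% lower over all genes. All 4 Combination tumours lay below all 4 Placebo tumours for 30 members (41.7%), where the same held for 12.9% of all genes. At limma's adjusted p under 0.05, 1 member fell, Rps27l, and none rose, beside 10.4% of all genes called and 6.64% that fell. An unadjusted p under 0.05 was reached by 14 members and by 29.2% of all genes. The median standard error of a member's difference was 0.05, close to the median difference itself. Leaving out 1 tumour also moved the share of all genes called, to 0.246% without Combination replicate 2 and to 0.357%, 2.16% and 1.49% without Placebo replicates 2, 3 and 4. In the 64 bright members the median difference was -0.06, and in the other 129 bright genes -0.03. The median was -0.07 over the Rpl genes and -0.05 over the Rps genes.

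**Figure D2:**
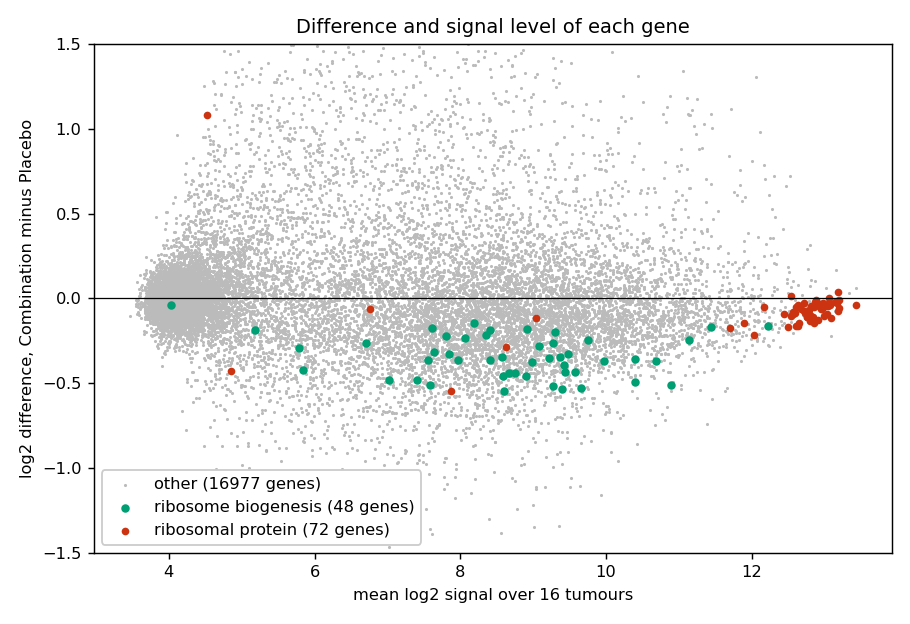
Log2 difference between the Combination and Placebo means against the mean log2 signal, 1 point per gene; grey, all other genes, green, 48 ribosome biogenesis genes, red, 72 ribosomal protein genes. Most red points form a narrow cluster just under 0 at the right-hand end, and the green points lie lower at middle levels; 249 genes outside the axis are not drawn.

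Rps27l, a paralogue of the small-subunit protein Rps27 and a known p53 target, was the member that passed the test. Its log2 signal in Placebo tumours 1 to 4 was 11.73, 11.79, 11.86 and 11.82. In Combination tumours 1 to 4 it was 11.68, 11.62, 11.59 and 11.60, and in Cabozantinib tumours 1 to 5 it was 11.67, 11.75, 11.65, 11.63 and 11.64. All 4 Combination tumours and 4 of the 5 Cabozantinib tumours were below the lowest Placebo tumour. AntiPD1 tumours, at 11.69, 11.70 and 11.82, overlapped Placebo. The difference between Combination and Placebo was -0.18 with a standard error of 0.05 and a limma adjusted p of 0.0496, and its other 2 probe sets differed by -0.18 and -0.17. The adjusted p is close to the threshold: over 28 other settings it ran from 0.0271 to 0.135 and passed in 8. Against Placebo the difference was -0.13 in Cabozantinib (limma adjusted p = 0.29) and -0.07 in AntiPD1 (0.551).

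Rpl14 and Rps15a had the most negative differences of the members in this comparison. Rpl14, a large-subunit protein, read 7.99, 8.21, 8.06 and 8.21 in Placebo and 7.76, 7.36, 7.50 and 7.66 in Combination tumours, with no overlap. The difference was -0.55 with a standard error of 0.18 (limma adjusted p = 0.0606). In Cabozantinib tumours Rpl14 was 8.20, 8.25, 7.62, 7.37 and 8.05, so that replicates 3 and 4 again stood with the Combination group. Rps15a, a protein of the small subunit, read 4.82, 4.99, 5.36 and 5.07 in Placebo and 4.38, 4.56, 4.97 and 4.63 in Combination, a difference of -0.43 with a standard error of 0.13 (limma adjusted p = 0.0519). The groups overlapped in 1 Combination tumour, and all these Rps15a values are near background. Both genes have a TOP-like run at the start shown above.

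**Figure D3:**
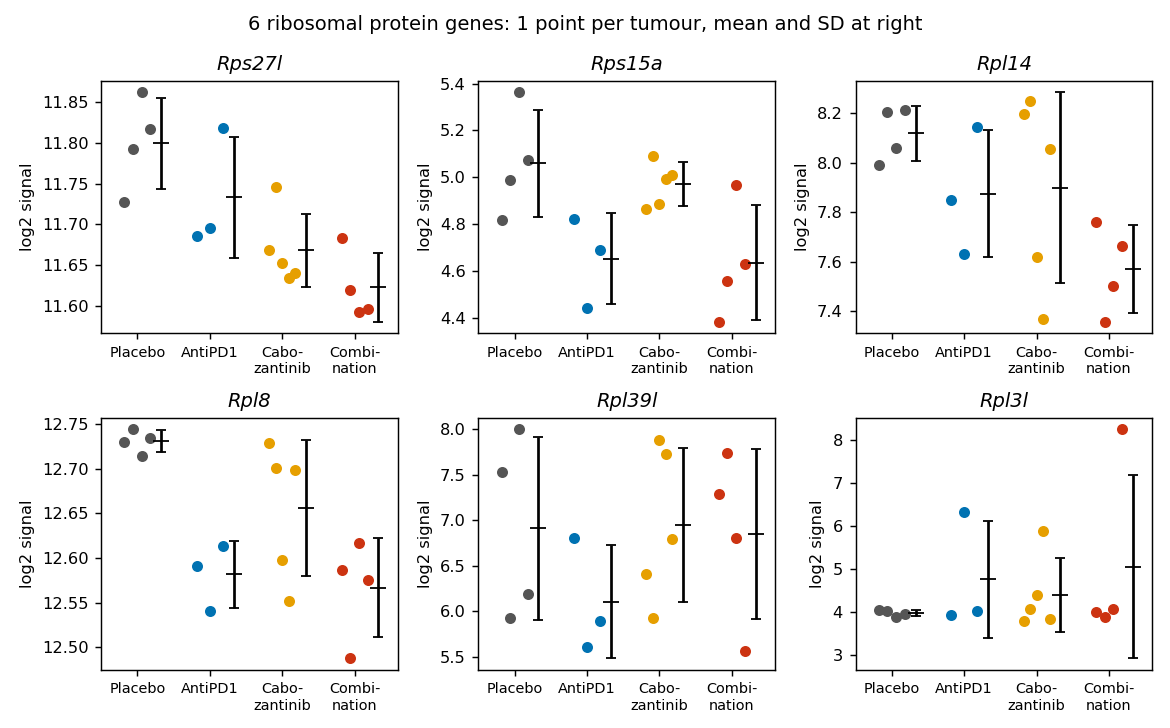
Log2 signal of 6 ribosomal protein genes in each tumour, 1 point per tumour by group, with the group mean and SD to the right; each panel has its own axis. Rps27l, Rpl14 and Rpl8 in Combination lie below every Placebo tumour, Rpl39l varies widely within each group, and Rpl3l is high in 1 tumour each of AntiPD1, Cabozantinib and Combination.

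Several bright members showed the same order on a finer scale; Rpl8, Rps15 and Rpl35 were singled out after their values were seen. Rpl8, next to the catalytic centre of the large subunit, was 12.73, 12.74, 12.71 and 12.73 in Placebo and 12.59, 12.49, 12.62 and 12.58 in Combination. It was 12.59, 12.54 and 12.61 in AntiPD1 and 12.73, 12.70, 12.60, 12.55 and 12.70 in Cabozantinib. Every antibody-treated tumour was thus under every Placebo tumour, while 4 of the 5 Cabozantinib tumours were under the lowest Placebo tumour and 1 within the Placebo range. The difference from Placebo was -0.16 ± 0.05 (SE) in Combination and -0.15 ± 0.06 in AntiPD1, with limma adjusted p of 0.0646 and 0.202. Rps15, of the small subunit, differed by -0.16 ± 0.06 and -0.13 ± 0.06 (limma adjusted p = 0.083 and 0.263), again without overlap in either comparison. Rpl35, beside the exit of the peptide tunnel, read 12.93 to 12.95 in all Placebo tumours and 12.80 in all 4 Combination tumours. It was also the only member for which all 5 Cabozantinib tumours, at 12.78 to 12.92, lay below Placebo.

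Differences of the stalk proteins, which recruit elongation factors to the large subunit, lay on both sides of the members' median of -0.06. Rplp0 was 13.19, 13.23, 13.26 and 13.21 in Placebo and 13.21, 13.14, 13.12 and 13.12 in Combination, a difference of -0.08 ± 0.05 (limma adjusted p = 0.324) with 1 tumour overlapping. Rplp1 and Rplp2 differed by -0.02 and -0.05. On the small subunit, Rps6, the protein whose phosphorylation reports S6 kinase activity, was 13.15 to 13.19 in Placebo and 13.13 to 13.16 in Combination, a difference of -0.03 ± 0.04. Its messenger RNA says nothing of that phosphorylation. Rpsa, which doubles as a laminin receptor, differed by -0.13 ± 0.06 (limma adjusted p = 0.125), with all 4 Combination tumours below Placebo. Rpl11, which can bind the p53 regulator Mdm2 when free of the ribosome, differed by -0.10 ± 0.06 and overlapped Placebo in 1 tumour. The 4 members with a higher Combination mean were Rpl3l, Rps29 (0.04), Rpl9 (0.02) and Rpl39 (0.0015), none past the test.

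AntiPD1 against Placebo asks what the antibody changed alone, and it shares the Placebo tumours with the comparison above. Here 69 of 72 members were lower, by a median of -0.06 (-4.24%), beside -0.03 and 56.8% lower over all genes. All 3 AntiPD1 tumours lay below all 4 Placebo tumours for 35 members (48.6%), beside 12.3% of all genes. By limma's adjusted p 0 members were called, beside 0.0292% of all genes, and 4 members had an unadjusted p under 0.05 (Rps15a, Rpl8, Rpl22l1 and Rpl35), as did 19.2% of all genes. Rpl22l1, a paralogue of Rpl22 known for effects on splicing, read 12.12, 12.09, 12.17 and 12.19 in Placebo, 11.916, 11.876 and 11.998 in AntiPD1 and 11.94, 11.84, 11.95 and 11.99 in Combination. Neither treated group overlapped Placebo, and the difference was -0.21 ± 0.08 in both, with limma adjusted p of 0.205 and 0.0901. Rpl22 itself differed by -0.14 in both, with SEs of 0.07 and 0.06, also without overlap. Rps15a differed by -0.41 ± 0.14 (limma adjusted p = 0.168).

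Cabozantinib against Placebo, which asks what the kinase inhibitor changed alone, gave differences on both sides of 0. There were 45 members with a lower mean and 27 with a higher one, and the median was -0.01 beside 7.1e-05 over all genes. By limma's adjusted p 0 members were called, beside 0.257% of all genes, and 1 member, Rps27l, had an unadjusted p under 0.05, as did 13% of all genes. All 5 Cabozantinib tumours lay below Placebo for 1 member, Rpl35, beside 2.54% of all genes. Bright members differed by -0.09 to 0.04.

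**Figure D4:**
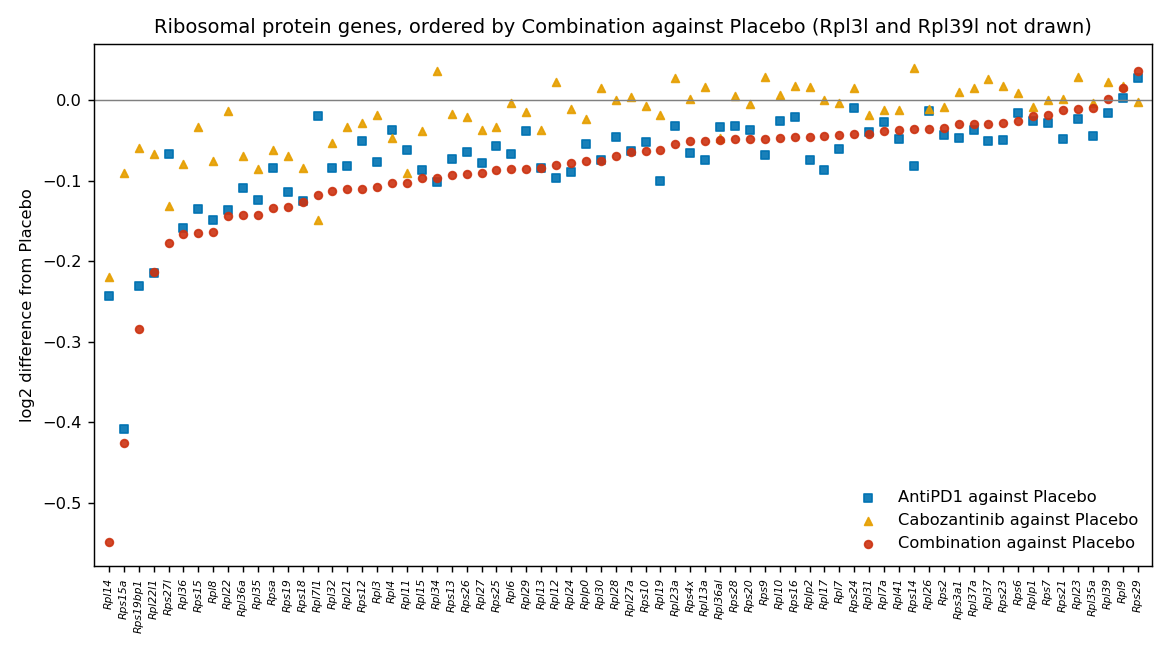
Log2 difference from the Placebo mean for 70 ribosomal protein genes under AntiPD1 (squares), Cabozantinib (triangles) and Combination (circles), ordered by Combination; the 3 share the Placebo tumours, and Rpl3l and Rpl39l are not drawn. Squares and circles lie mostly between 0 and -0.15, and triangles lie on both sides of 0.

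Combination against Cabozantinib asks what the antibody added to the inhibitor. In it, 69 of 72 members were lower, with a median of -0.06 beside -0.03 and 57.8% lower over all genes. All 4 Combination tumours were below all 5 Cabozantinib tumours for 7 members (9.72%), beside 3.05% of all genes: Rpl22, Rpl23, Rpl23a, Rpl27a, Rpl34, Rps26 and Rps28. By limma's adjusted p 0 members were called, beside 0.00585% of all genes, and 4 members and 22.5% of all genes had an unadjusted p under 0.05. The lowest adjusted p was 0.117, for Rpl34. With arrays centred on bright genes outside the family the count of 7 was 2 (2.78%, beside 2.92% of all genes), and with arrays centred on the median gene 1 (1.39%, beside 6.56%). It rose to 20 (27.8%, beside 8.91% of all genes) when the 3 tumours rich in muscle transcripts were left out, 2 of which belong to these groups, to 16 and 11 without Combination replicates 3 and 1, and to 13 and 11 without Cabozantinib replicates 4 and 3. In Combination against AntiPD1 the median was -0.01, 44 members were lower, and limma's adjusted p called 0, beside 0.234% of all genes, with 0 members and 7.21% of all genes at an unadjusted p under 0.05. The interaction of the 2 drugs had a median of 0.01 over the members and 0 calls by limma's adjusted p, beside 0% of all genes, and 0 members and 2.57% of all genes had an unadjusted p under 0.05. Across any difference between the 4 groups, limma's moderated F test called 0 members beside 6.77% of all genes, and 6 members and 30% of all genes had an unadjusted p under 0.05.

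Among probe sets above the highest array median, the dimmer ones of these genes had the larger median differences. The 72 members had 135 probe sets with 1 gene. In Combination against Placebo the median difference was -0.07 over the 89 with a mean above 12, -0.18 over the 25 between 8 and 12, and -0.42 over the 10 from the highest array median up to 8. All 35 of the latter 2 classes were negative. Over the 11 that were not above the highest array median, and so near background, it was -0.10, with 9 negative. Over all probe sets with 1 gene, the members' included, the matching medians were -0.06, -0.08 and -0.04. Of the 240 with a mean above 12, 89 were the members' own. Over the 129 bright genes outside the family, read through 1 probe set each, the median was -0.03. For AntiPD1 against Placebo the members' medians were -0.06, -0.17 and -0.48, and for Cabozantinib against Placebo -0.01, -0.03 and -0.17. Over the 11 near background they were -0.08 and -0.03. Among the 34 members with several probe sets, the dimmest was more negative than the brightest in 27 for AntiPD1, 27 for Combination and 21 for Cabozantinib against Placebo. Each comparison was counted separately, and some of the dimmest probe sets were near background. For Rps6 the kept probe set, at 13.17, differed by -0.03 in Combination and another, at 9.54, by -0.25. For Rpl41 they were -0.04 at 13.43 and -0.35 at 8.23. Probe sets of 1 gene share its tumours, and which of them follows the transcript was not tested. With every probe set tested as its own row, 2 members had a probe set that fell in Combination against Placebo, Rpl37a and Rpl7l1, beside 7.42% of all probe sets called.

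**Figure D5:**
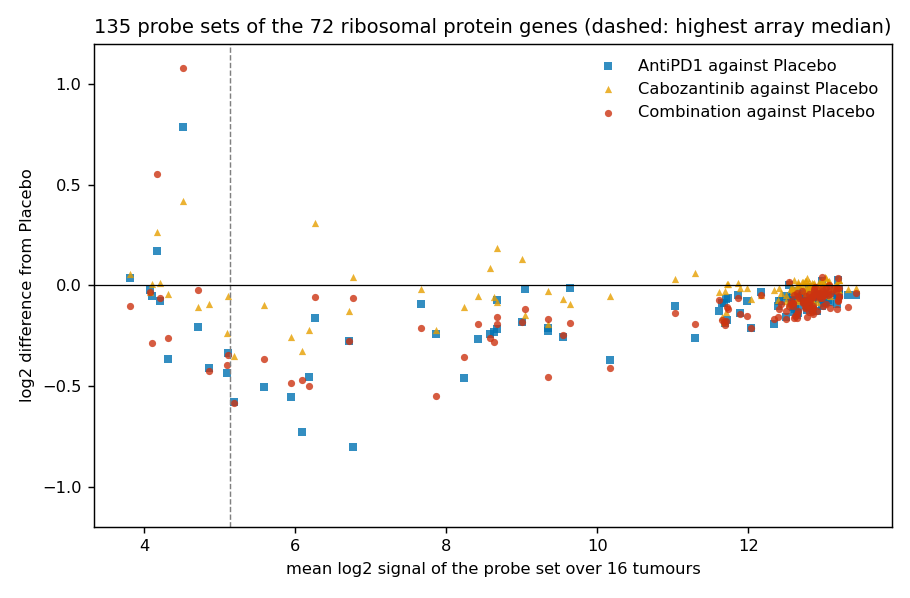
Log2 difference from Placebo against mean log2 signal for the 135 probe sets of the 72 ribosomal protein genes under AntiPD1, Cabozantinib and Combination; the dashed line is the highest array median, 5.13. At signals above 12 the points lie close to 0, and between the dashed line and 10 the AntiPD1 and Combination points are mostly lower, down to -0.81.

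Members with restricted expression followed other patterns. Rpl3l, which replaces Rpl3 in striated muscle ribosomes, was 4.03, 4.01, 3.88 and 3.95 in Placebo, 3.93, 6.32 and 4.01 in AntiPD1, 3.78, 4.05, 4.38, 5.88 and 3.84 in Cabozantinib and 3.99, 3.89, 4.07 and 8.25 in Combination. The tumours at 6.32, 5.88 and 8.25 are those in which muscle markers were high. In the same tumours the muscle actin Acta1 read 12.8, 12.8 and 13.2. In the other 13 tumours Rpl3l was under every array median, and its group differences were not past the test (lowest limma adjusted p of the 3 against Placebo, 0.43). Its bright partner Rpl3, by contrast, was 12.64 to 12.89 in all 16 tumours.

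Rpl39l, the testis paralogue of Rpl39 that is also found in some tumours and cell lines, varied widely within every group. It read 7.528, 5.931, 8.0008 and 6.188 in Placebo, 6.80, 5.62 and 5.90 in AntiPD1, 6.42, 5.93, 7.89, 7.73 and 6.79 in Cabozantinib and 7.29, 7.74, 6.80 and 5.57 in Combination. Every group overlapped every other, and the difference from Placebo was -0.81 ± 0.61 in AntiPD1 and -0.06 ± 0.57 in Combination. Its SD over 16 tumours was 0.85, against 0.05 for the median member. The 6 testis germ cell markers all had means under the highest array median. Rpl7l1, a nucleolar relative of Rpl7, differed from Placebo by -0.12 ± 0.10 in Combination and -0.02 ± 0.10 in AntiPD1. Rpl36al, an autosomal paralogue of the X-linked Rpl36a, differed by -0.05 ± 0.05 in Combination and Rpl36a by -0.14 ± 0.06. Rps19bp1, the binding protein, differed by -0.28 ± 0.11 in Combination (limma adjusted p = 0.107), with no overlap.

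Members with and without a pyrimidine run of 8 or more at an annotated start had similar medians. In Combination against Placebo the median was -0.07 over the 21 with a run and -0.05 over the 37 matched members without one. All 21 were lower, and 34 of the 37. In AntiPD1 against Placebo the medians were -0.07 and -0.05, and in Cabozantinib against Placebo -0.01 and -0.01. The difference between the sets was not tested. The split rests on annotated starts, and Rps27l, whose first start sat past the end of its run, is among the 21. It does not measure which messenger RNAs carry a TOP tract.

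Genes for the assembly of ribosomes mostly had lower means in each treated group than in Placebo, with the most negative median in Combination. Of 48 measured biogenesis genes, all 48 were lower in Combination than in Placebo, with a median of -0.35, beside 54.8% lower and a median of -0.02 over all genes. Of the 48, 20 fell (41.7%) and 0 rose, beside 6.64% of all genes that fell. The mean level of the list was 8.41 to 8.93 over the tumours. Among all probe sets with a mean between 8 and 12, 61.6% were lower. Their median was -0.08, and 13.6% were called in either direction. Nop2, which methylates ribosomal RNA, fell by 0.55 ± 0.15 (SE; limma adjusted p = 0.0375), from 8.57, 9.12, 8.90 and 9.06 in Placebo to 8.41, 8.09, 8.54 and 8.42 in Combination, without overlap. Utp20, of the small-subunit processome, fell by 0.53 ± 0.14 and Dkc1, the pseudouridine synthase of small nucleolar particles, by 0.53 ± 0.15 (limma adjusted p = 0.033 and 0.0409). The count rests on single tumours, and the share of all genes called in either direction moved as well. Without Combination replicate 2 or Placebo replicate 2 the count was 0, beside 0.246% and 0.357% of all genes called. Without Placebo replicates 3 and 4 it was 2 and 1, beside 2.16% and 1.49%. Without Combination replicates 3 and 4 it was 9 and 4, beside 6.7% and 7.46%. Without AntiPD1 replicate 1 it was 11, beside 6.57%. The median stayed between -0.46 and -0.31 in all settings. Without the 3 tumours high in muscle genes 10 fell, beside 7.51% of all genes called, and 12 with the muscle score as a covariate, beside 6.47%. Against Placebo the median was -0.25 in AntiPD1 and -0.19 in Cabozantinib, with 0 past the test in either, beside 0.0292% and 0.257% of all genes. In AntiPD1 47 of the 48 were lower and in Cabozantinib 43, beside 56.8% and 50% of all genes.

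Mitochondrial ribosomal proteins, which serve a separate ribosome, gave a median of -0.19 in Combination against Placebo, and 10 of 73 fell (13.7%, beside 6.64% of all genes that fell), among them Mrpl16 by 0.44 ± 0.10, Mrps6 by 0.42 ± 0.12 and Mrps30 by 0.40 ± 0.11 (limma adjusted p = 0.0221, 0.0426 and 0.043). That count was 0 without Combination replicate 2 or any 1 of Placebo replicates 2, 3 and 4, beside 0.246% to 2.16% of all genes called in either direction. It was 3 without Combination replicate 3 or 4, AntiPD1 replicate 1 or Cabozantinib replicate 5, beside 6.57% to 7.92%. It was 18 without Cabozantinib replicate 3 and 16 without Placebo replicate 1, beside 13.4% and 11.5%. It was 2 with the muscle score as a covariate or without the 3 tumours high in muscle genes, beside 6.47% and 7.51% of all genes called. With arrays centred on the median gene it was 3, beside 8.48%, and with array weights 24, beside 17.9%. Of 16 translation factors whose messenger RNAs carry TOP tracts, 1 fell in Combination (6.25%, beside 6.64% of all genes that fell). This was the elongation factor Eef2, by 0.25 ± 0.06 (limma adjusted p = 0.0342). Of the 16, 15 had lower means, beside 54.8% of all genes. Of 21 initiation factors and tRNA synthetases 1 fell (4.76%, beside 6.64% of all genes that fell), the valine enzyme Vars, by 0.40 ± 0.12 (limma adjusted p = 0.0445). Among 19 regulators of ribosome production 1 was called in Cabozantinib and 1 in Combination (5.26% in each, beside 0.257% and 10.4% of all genes). In both it was Mxi1, a MYC antagonist, which rose by 0.44 ± 0.08 and 0.30 ± 0.09 (limma adjusted p = 0.0418 and 0.046). All Cabozantinib and Combination tumours were above Placebo for Mxi1. Myc itself differed by -0.25 ± 0.13 in Combination (limma adjusted p = 0.226). In a list of 10 p53 pathway genes 1 fell in Combination (10%, beside 6.64% of all genes that fell), Zmat3, by 0.64 ± 0.13 (limma adjusted p = 0.0182). Mdm2 differed by -0.01 and Cdkn1a by 0.10. Fau, which encodes a small-subunit protein outside the symbol rule, differed by -0.03 ± 0.05.

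The array's control probe sets for ribosomal RNA gave a mean log2 signal of 12.52 to 12.76 in Placebo, 12.56 to 12.74 in AntiPD1, 12.11 to 12.52 in Cabozantinib and 11.71 to 12.58 in Combination tumours. Ribosomal RNA has no poly(A) tail and labelling used an oligo-dT primer, so these values are not a measure of ribosome content. Cabozantinib differed from Placebo by -0.31 (two-sided exact permutation p = 0.0317, 0.159 after Benjamini-Hochberg adjustment over 5 comparisons), with 4 of 5 tumours below every Placebo tumour. Combination differed by -0.29 (two-sided exact permutation p = 0.143), and its lowest tumour, replicate 3, was not the one lowest in ribosomal proteins.

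The size of the shift depended on the scaling of the arrays. The median signal of an array's genes was higher by 0.12 in AntiPD1 and by 0.11 in Combination than in Placebo, a different quantity from the median of the differences gene by gene, which was -0.03 and -0.02. With each array centred on its median gene, the members' median difference was -0.18 in AntiPD1 and -0.17 in Combination against Placebo, and all-below counts were 24 (33.3%, beside 17.9% of all genes) and 20 (27.8%, beside 18.2%). With arrays centred on the 129 bright genes outside the family, the medians were -0.10 and -0.11 and the counts 48 (66.7%, beside 15.7% of all genes) and 45 (62.5%, beside 16.4%). The direction of the median was negative under each scaling.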

How the data were processed

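Total RNA from 16 tumours, 50 ng each, was read by the authors on 1 Affymetrix mouse genome array per tumour, per the labels' protocols. As deposited, each probe set has a log2 signal; the submitters' processing notes name RMA and affy 1.62.0, with settings not stated. RMA as usually run aligns the signal distributions of arrays, so a change common to the brightest genes can be reduced. The table held 45141 probe sets, 28898 with 1 gene; 15 probe sets that name several genes, ribosomal ones among them, were not used, so Rpl5, Rps3 and others were not analysed here.

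The comparisons used limma 3.58.1 under R 4.3.3 (lmFit and eBayes, 4 group means, no covariate), with Benjamini-Hochberg adjustment over 17097 genes and a threshold of 0.05. Residual degrees of freedom were 12. In simulated data 200 genes, drawn from all genes above the highest array median, were changed in Combination. Noise was drawn independently for each gene, without shifts shared by the genes of a tumour, so false calls in the real tumours were not measured. Against Placebo 35.8%, 83.6% and 97.0% of changes of 0.5, 1 and 2 log2 units were recovered, with 7 false calls among 17097 genes. The median standard error in this comparison was 0.11 over all genes and 0.05 over the ribosomal protein genes. The shares recovered thus do not measure recovery for the ribosomal protein genes, most of whose differences were smaller than 0.5. Members, gene lists and naming rule were chosen with earlier results of these data known. Named were members past the threshold, the 3 most positive and negative per comparison, the brightest, dimmest and most variable, a panel of 25 symbols of which 20 were measured, and up to 3 called genes per other list. Sequences are from RefSeq, build GRCm38.p6. The settings varied were the probe set rule, array weights, intensity trend, low-signal filter, scaling, covariates, a block and each tumour left out. Arrays carry no read depth, and their number limits the precision.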

Additional observations from a re-analysis of the deposited data

Results flagged for a closer look

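Among 90 sets of 4 or 5 tumours examined, 11 had a highest or lowest tumour far from its group; about 1 in 20 such sets would be picked out by chance. No explanation was tested for any of them. Rpl3l was highest in Combination replicate 4 (8.25) and in Cabozantinib replicate 4 (5.88), both high in skeletal muscle markers. In the Combination group Rpl36a was lowest in replicate 2 (12.50), Rplp0 highest in replicate 1 (13.21), and the 18S rRNA control lowest in replicate 3 (11.71, next 12.47). In the Cabozantinib group Rpl41 and Rpl9 were highest in replicate 1 (13.47 and 12.61), and Rps6 lowest in replicate 4 (13.15). In the Placebo group Rpl7l1 was lowest in replicate 1 (8.93, next 9.16), Rplp1 lowest in replicate 2 (13.14), and the median deviation of the 72 members lowest in replicate 1 (0.019).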

How the results depend on the processing

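The median difference of the ribosomal protein genes stayed negative in AntiPD1 and Combination against Placebo and in Combination against Cabozantinib in all 29 settings. It was -0.10, -0.11 and -0.089 with arrays centred on bright genes outside the list, -0.18, -0.17 and -0.18 with arrays centred on the median gene, and -0.095 for Combination against Placebo with the mean of all probe sets. In Combination against Placebo 1 member passed the threshold as reported. The number was 8 with array weights (17.9% of all genes called), 7 with an intensity trend (10.4%) and 3 among genes above the highest array median (22.3%). It was 2 with each probe set as its own row (7.42% of all probe sets) and 2 with the title number as a random block (10.9%). It was 0 with _at probe sets preferred (9.51%), with labelling controls (9.07%) or with the muscle score as a covariate (6.47%). The cause was not tested. With 1 tumour left out the number ran from 0 to 2, beside 0.246% to 13.4% of all genes called, and 10 of 16 such fits gave 0. Without AntiPD1 replicate 2 or Combination replicate 3 the member past the threshold was Rps15a in place of Rps27l. Without Cabozantinib replicate 4 it was Rpl14. Array weights gave 1 member in AntiPD1 against Placebo (Rpl22l1) and 3 in the F test, where centring on the median gene and the intensity trend each gave 1 and leaving out 1 tumour gave 0 to 1. The count of members with every tumour below was 0 for Cabozantinib against Placebo with centring on the median gene or on bright genes, beside 1.33% and 2.09% of all genes. With a tumour left out it was 1 to 3 (1.39% to 4.17%, beside 3.04% to 5.69% of all genes). For Combination against Cabozantinib it was 1 with centring on the median gene (6.56% of all genes) and 2 with centring on bright genes (2.92%). It was 20 without the 3 tumours high in muscle genes (8.91% of all genes), and 7 to 16 with a tumour left out (3.59% to 8.36%). Of 140 single-gene differences over all settings, 20 values lost and 16 gained a call, and 0 called values changed sign. The settings on muscle-rich tumours, bright genes, separate probe sets and all-below counts were added after seeing the data. No paired analysis was run because the labels state no pairing of tumours between groups. Replicate numbers used here follow the order of the samples within each group. The block used the number in the sample title, which in some cases recurs across groups. Its meaning is not stated, and its consensus correlation was -0.10.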
